A study of Juglans cathayensis with 6 samples.

Results

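The 3 genes described here, TRINITY_DN12717_c1_g2, TRINITY_DN12717_c1_g3 and TRINITY_DN12406_c0_g5, were each listed at 0 TPM in every library of one walnut variety and between 11.6 and 56.4 TPM in every library of the other. All 3 carry the description UPF0481 protein At3g47200-like. They were taken by identifier, as 3 of the 48 genes of the UPF0481 family among 39234 genes of the deposited table, and they had been picked because their levels differed between the varieties. Their differences are therefore given as values without a test, and tests are given for other genes only. TPM is a relative transcript abundance corrected for gene length, so levels of different genes are set side by side here. How the length entered the correction is not stated, so such comparisons are approximate.

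The libraries were made from the husk of *Juglans cathayensis*, the Chinese walnut, which is the green outer covering around the nut. There were 3 libraries of a variety recorded as brown when freshly cut and 3 of a variety recorded as white, all with a time label of 35 days whose starting event is not stated, and with no special treatment. The aim given for the series concerns enzymatic browning, in which phenolic compounds of cut tissue are oxidized to dark pigments. Each colour is 1 variety, so colour and every other difference between the varieties cannot be told apart, and the labels do not say whether libraries of a colour came from separate trees.

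UPF stands for uncharacterized protein family, and the members of UPF0481 carry the plant protein domain of unknown function DUF247. The family is named after genes of *Arabidopsis thaliana*, is found in many copies in plant genomes, and has no established biochemical activity. In perennial ryegrass, genes with this domain lie at the loci of self-incompatibility, by which the stigma rejects the plant's own pollen. No role in walnut husk is taken for granted here.

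The identifiers come from an assembly without a genome. The DN and c numbers name a cluster of contigs linked by shared sequence, and the g number names an assembled gene within it. A gene in this sense can be a locus, an allele or a fragment of a longer transcript, and reads can be split between near-identical copies, so the level of a single gene of a many-copy family is uncertain. The table holds no sequences, so members are identified by name, length and annotation.

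The libraries summed to between 994877 and 996692 TPM. Read depth cannot be recovered from TPM and is unknown, so no counting interval can be given. Brown libraries held 34826 to 35240 genes at 1 TPM or more and white libraries 28349 to 33949, the lowest being white replicate 2, which stood apart from the other white libraries. The 100 highest genes took 34.0% of its TPM, while in the other 5 libraries they took 24.7% to 27.2%. Genes of green tissue (56 genes for light-harvesting proteins, photosystem subunits and the small subunit of Rubisco) summed to between 5376 and 10599 TPM in brown and between 7674 and 9523 TPM in white libraries. Of markers of the kernel, the seed inside the husk, no gene described as 2S albumin, legumin, vicilin or 11S globulin was listed. The 4 kernel matches listed, 2 oleosins and 2 basic 7S globulin-like genes, summed to between 22.2 and 37.7 TPM in brown and between 38.9 and 54.8 TPM in white libraries. One of them, the basic 7S globulin-like TRINITY_DN16800_c0_g1, had 1.67, 19.1 and 13.8 TPM in brown libraries and 0 in white ones. The other 3 were each lower in every brown library than in any white one, and summed to between 12.4 and 24.0 TPM in brown and between 38.9 and 54.8 TPM in white libraries. Their part in the differences below was not tested.

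TRINITY_DN12717_c1_g2 was the highest of the 3 genes. It was listed at 56.4, 51.3 and 53.6 TPM in brown replicates 1, 2 and 3 and at 0 in all 3 white libraries. The brown libraries lay close together, with a highest value 1.10 times the lowest and a coefficient of variation of 4.72%. Of 11620 genes with a mean of 10 TPM or more in brown husk, 14.1% had a smaller coefficient, and the median was 11.1%. By mean TPM in brown husk the gene was number 8 of the 48 family genes and lay above 92.4% of all listed genes. It is 780 bases long, with 2 assembled isoforms, and its best Swiss-Prot match is a second Arabidopsis family member, At3g02645.

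TRINITY_DN12717_c1_g3, of the same cluster, had the opposite pattern. It was listed at 0 in all 3 brown libraries and at 21.1, 11.6 and 21.5 TPM in white replicates 1, 2 and 3. White replicates 1 and 3 were nearly equal and white replicate 2, the library that stood apart, was the lowest, which gave a coefficient of variation of 31.1%. Among 10975 genes with a mean of 10 TPM or more in white husk the median coefficient was 19.1%, and 77.8% had a smaller one. The gene was number 13 of the family in white husk and lay above 80.5% of all genes. It is 496 bases long, with 1 isoform and no Swiss-Prot match.

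TRINITY_DN12406_c0_g5 was listed at 42.2, 46.5 and 26.7 TPM in brown replicates 1, 2 and 3 and at 0 in all 3 white libraries. Brown replicate 3 was the lowest here and brown replicate 2 the highest, whereas brown replicate 2 was the lowest for TRINITY_DN12717_c1_g2. The coefficient of variation was 27.0%, larger than for 87.6% of genes with a mean of 10 TPM or more. In each brown library the gene stood below TRINITY_DN12717_c1_g2, and the ranges of the 2 genes did not overlap there. It is 234 bases long and described as partial, and it has no Swiss-Prot match, GO term, orthologous group or Pfam domain, so its place in the family rests on the main description alone.

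**Figure D1:**
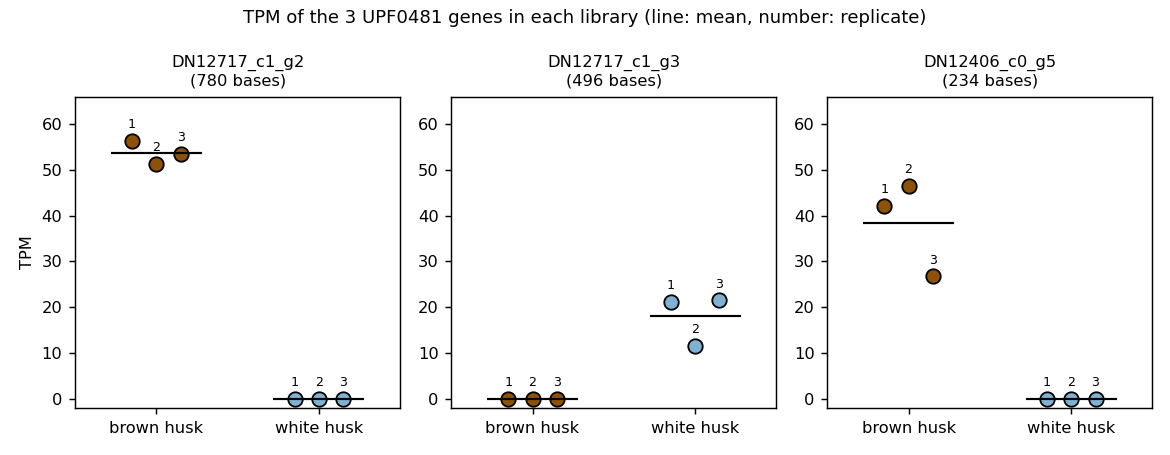
TPM of the 3 UPF0481 genes in each library (vertical axis, TPM; points, libraries with their replicate number; lines, means of 3 libraries). TRINITY_DN12717_c1_g2 and TRINITY_DN12406_c0_g5 lie between 26.7 and 56.4 TPM in brown husk and at 0 in white husk, and TRINITY_DN12717_c1_g3 lies at 0 in brown husk and between 11.6 and 21.5 TPM in white husk.

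The table also lists values far below the levels of the 3 genes for genes of like length. Among 1819 genes within 10% of the length of TRINITY_DN12717_c1_g2, the lowest values above 0 in white replicates 1, 2 and 3 were 0.07, 0.06 and 0.06 TPM. Among 5327 genes within 10% of the length of TRINITY_DN12406_c0_g5 they were 0.15, 0.12 and 0.12 TPM. For TRINITY_DN12717_c1_g3, the 2182 genes of like length had lowest values above 0 of 0.15, 0.13 and 0.12 TPM in brown replicates 1, 2 and 3. Without counts no fold change against 0 can be given. On the log2(TPM + 1) scale the brown minus white differences were 5.77 for TRINITY_DN12717_c1_g2, 5.26 for TRINITY_DN12406_c0_g5 and -4.20 for TRINITY_DN12717_c1_g3, and these sizes depend on the added 1 TPM. With 0.1 TPM added they were 9.07, 8.55 and -7.45.

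Listing at 0 in one variety was uncommon in the table. At 1 TPM or more in every brown library and 0 in every white library were 319 genes (0.813% of those listed), and the reverse held for 187 genes (0.477%). The first count was 434 and the second 237 without white replicate 2, 543 genes met the first without white replicate 1, and 557 without white replicate 3. Leaving out a library can only keep or raise these counts, since fewer libraries have to meet the condition. At 10 TPM or more in the higher variety, 15 genes (0.0382%) were listed above 0 in brown husk alone and 12 (0.0306%) in white husk alone. By mean TPM, TRINITY_DN12717_c1_g2 was number 2 and TRINITY_DN12406_c0_g5 number 5 of those 15, and TRINITY_DN12717_c1_g3 was number 8 of those 12. The 3 genes had been picked for differing between the varieties, so their place among these genes is a description.

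The 2 chosen genes of cluster DN12717_c1 share further annotation. TRINITY_DN12717_c1_g2 and TRINITY_DN12717_c1_g3 each carry the DUF247 domain, as do 46 of the 48 family genes, and they have the same orthologous group (ENOG4111A8U) and the same 4 GO terms, among them plasma membrane and integral component of membrane. Genes other than the 3 were compared between the varieties in one fit over all 37829 genes that passed a filter on low values (limma on log2(TPM + 1), Benjamini-Hochberg adjustment). The words rose and fell are kept for genes at an adjusted p below 0.05, and 3.83% of all tested genes rose in brown husk while 2.17% fell. The husk is a mixture of cells, so more cells of a type and more transcript per cell cannot be told apart. The orthologous group held 5 other family genes. TRINITY_DN14998_c0_g5 rose, with 110.2, 81.2 and 82.3 TPM in brown and 31.3, 21.2 and 23.9 TPM in white libraries. TRINITY_DN12717_c1_g6, TRINITY_DN13761_c1_g2 and TRINITY_DN14061_c0_g7 were under 1 TPM in every brown library and passed the filter through white husk alone, so they had to differ and their falls are a description. TRINITY_DN14998_c0_g4 did not pass the threshold. This grouping was made after the values were seen.

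Cluster DN12717_c1 held 4 UPF0481 genes, the 2 already described and 2 more. TRINITY_DN12717_c1_g6, 379 bases long, was listed at 0 in all brown libraries and at 3.48, 7.11 and 8.94 TPM in white replicates 1, 2 and 3. It thus had the pattern of TRINITY_DN12717_c1_g3, except that white replicate 1 and not white replicate 2 was the lowest library. TRINITY_DN12717_c1_g1 was the longest of the 4 at 1535 bases and was expressed in both varieties. It had 6.30, 7 and 6.84 TPM in brown and 4.76, 5.89 and 5.25 TPM in white libraries, ranges that did not overlap, and the log2 fold change was 0.29 ± 0.21 (SE, limma adjusted p = 0.470). The 4 genes together summed to 62.7, 58.3 and 60.4 TPM in brown and 29.4, 24.6 and 35.7 TPM in white libraries. Every brown sum was above every white sum, as the 2 chosen genes alone would give.

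**Figure D2:**
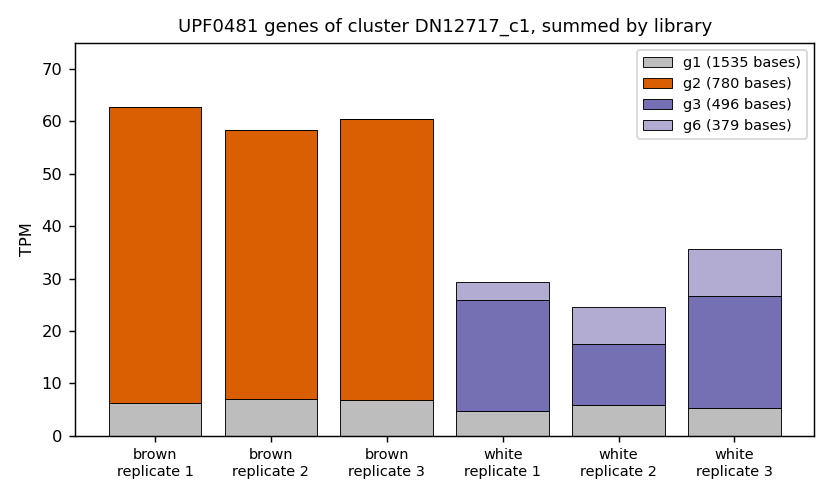
Summed TPM of the 4 UPF0481 genes of cluster DN12717_c1 in each library (vertical axis, TPM; bars start at 0; colours, genes). In brown husk the sum consists of g1 and g2, in white husk of g1, g3 and g6, and only g1, at 4.76 to 7 TPM, appears in all 6 libraries.

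The other 6 genes of that cluster are not UPF0481 genes. An esterase-like gene of the GDSL lipase family (TRINITY_DN12717_c1_g7) rose, with 17.0, 27.1 and 25.5 TPM in brown and 6.21, 2.07 and 5.77 TPM in white libraries (log2 fold change 2.16 ± 0.36, SE, limma adjusted p = 0.0182). Its call was lost without brown replicate 2 or brown replicate 3, and with the replicate number as a block (adjusted p = 0.0518, with a range of 0.0108 to 0.0860 over all alternatives). An acyl-lipid (9-3)-desaturase-like gene (TRINITY_DN12717_c1_g9), of a class of enzymes that place double bonds in fatty acids, also rose, with 36.9 ± 3.77 TPM in brown and 20.4 ± 1.61 TPM in white husk (SD, n = 3 each, limma adjusted p = 0.0206). Its call was lost without brown replicate 2 or 3 or white replicate 1 or 3, under quantile normalization (adjusted p = 0.0620) and without the mean-variance trend (adjusted p = 0.0696, with a range of 0.0157 to 0.106 over all alternatives). The gene for TIM10 (TRINITY_DN12717_c1_g8), which carries proteins into the mitochondrial inner membrane, had 101 ± 19.0 TPM in brown and 105 ± 6.47 TPM in white husk (limma adjusted p = 0.848). The rhodanese-like (TRINITY_DN12717_c1_g11), gp1-like (TRINITY_DN12717_c1_g12) and undescribed (TRINITY_DN12717_c1_g4) genes did not pass either, and their ranges overlapped between the varieties.

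TRINITY_DN12406_c0_g5 was the sole UPF0481 gene of its cluster, and none of the other 4 genes there passed the threshold in the values as deposited. They include the homeobox gene HDG11-like (TRINITY_DN12406_c0_g3), whose Arabidopsis namesake is a transcription factor of the epidermis, with 13.0, 11.5 and 10.6 TPM in brown and 10.6, 6.71 and 9.40 TPM in white libraries. The 4 genes together had 25.8, 21.1 and 19.3 TPM in brown and 24.7, 17.5 and 23.5 TPM in white libraries, so the groups overlapped. One undescribed gene (TRINITY_DN12406_c0_g2) was lower in every brown library, at 0.51, 0.25 and 0.24 TPM, than in any white one, at 4.67, 1.93 and 1.69 TPM (limma adjusted p = 0.0791). It passed the filter through white husk alone, so it had to differ and its p-values are a description. Under quantile normalization it passed the threshold (adjusted p = 0.0321, with a range of 0.0321 to 0.220 over all alternatives).

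A cluster holding both kinds of gene, one listed at 0 in brown and one at 0 in white husk, was found 9 times among 6426 clusters of 2 or more genes (0.140%). At 10 TPM or more in the higher variety the sole such cluster was DN12717_c1, the one from which 2 genes had been chosen. The count of 9, which can only stay or rise when a library is left out, was 15 without white replicate 2. Cluster DN14998_c0 also held a UPF0481 gene among its genes of this kind, TRINITY_DN14998_c0_g9, while its gene listed at 0 in white husk had no description.

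Of the 45 other UPF0481 genes, all of which passed the filter, 9 (20%) rose and 9 (20%) fell in brown husk, beside 3.83% and 2.17% of all tested genes. Of the 45, 12 were under 1 TPM in every library of one variety, 6 in each, and so passed the filter through the other variety alone, and such genes had to differ. They made up 11 of the 18 calls, 5 rises and 6 falls, so the counts of 9 and 9 are given as a description. Among the other 33 genes 4 rose and 3 fell, and of all tested genes outside that condition 2.32% rose and 1.41% fell. The 4 rises include TRINITY_DN15017_c0_g1, which was outside the condition only by its 1.04 TPM in white replicate 1. The median log2 fold change of the 45 was 0.28, beside 0.19 for all tested genes, and under quantile normalization -0.10 beside -0.01. With a filter of 5 TPM, which left 20 of the 45, 4 rose and 4 fell. Without brown replicate 3 there were 5 rises and 5 falls, and without white replicate 3 there were 7 and 5.

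**Figure D3:**
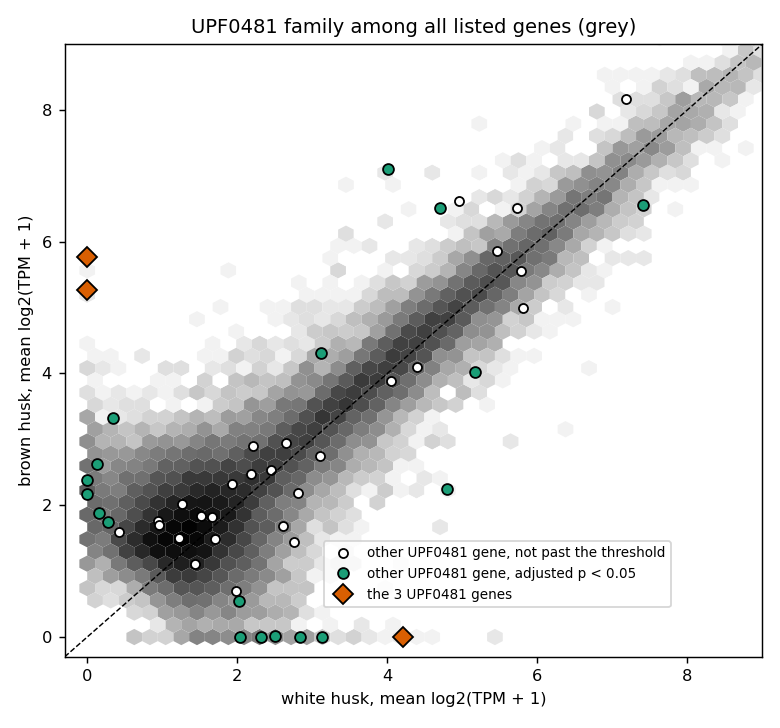
Mean log2(TPM + 1) in brown husk (vertical axis) against white husk (horizontal axis) for all listed genes (grey, darker where denser), the 45 other UPF0481 genes (circles, filled where the limma adjusted p is under 0.05) and the 3 UPF0481 genes (diamonds). Both axes end at 9, and the dashed line marks equal levels. Filled circles lie on both sides of the line, 9 above and 9 below, and the diamonds lie on the axes.

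Among the family genes that rose was TRINITY_DN13761_c1_g1, a partial At3g47200-like gene of 605 bases. It had 154, 137 and 122 TPM in brown and 14.8, 14.4 and 16.4 TPM in white libraries. The ranges were far apart, the log2 fold change was 3.09 ± 0.14 (SE, limma adjusted p = 0.000116), and the call held whichever library was left out. For TRINITY_DN14998_c0_g5, given above, the log2 fold change was 1.81 ± 0.19 (SE, limma adjusted p = 0.00384), and the call was kept as well. The longest gene that rose, TRINITY_DN15784_c0_g1 with 1857 bases, had 18.4, 20.1 and 17.8 TPM in brown and 7.24, 7.04 and 8.94 TPM in white libraries (limma adjusted p = 0.0108), a call lost when brown replicate 2 or 3 was left out.

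The other 6 genes that rose were low, at a mean of 9.26 TPM or less in brown husk. Both genes of cluster DN4066_c0 were detected in brown husk alone. TRINITY_DN4066_c0_g1 had 3.14, 4.57 and 2.97 TPM in brown libraries and 0 in white ones. TRINITY_DN4066_c0_g2 had 2.64, 5.22 and 5.31 TPM in brown libraries and 0 in white ones, a call lost without brown replicate 3. Among family genes at 0 in white husk they came next below the chosen ones by level. TRINITY_DN15563_c0_g3 had 4.07, 6.47 and 5.25 TPM in brown husk and 0.30 TPM in white replicate 3, with 0 in the other white libraries. Cluster DN15017_c0 contributed 3 rises. Its gene TRINITY_DN15017_c0_g1, 231 bases long, had 10.6, 10.8 and 6.42 TPM in brown libraries, 1.04 TPM in white replicate 1 and 0 in white replicates 2 and 3 (limma adjusted p = 0.00881). The 1.04 TPM alone kept it from the genes under 1 TPM in every white library. TRINITY_DN15017_c0_g3 and TRINITY_DN15017_c0_g4 passed the filter through brown husk alone, as did both genes of DN4066_c0 and TRINITY_DN15563_c0_g3. All of these had to differ, so their rises are a description. The calls of TRINITY_DN15017_c0_g3 and TRINITY_DN15017_c0_g4 were not stable. With 1 library left out the first passed only without white replicate 1 or white replicate 2, and the second in none of the 6 fits. Neither passed with 0.1 TPM added (adjusted p = 0.0505 and 0.0685) or with the replicate number as a block (adjusted p = 0.0580 and 0.0888, with ranges of 0.0117 to 0.0902 and 0.0151 to 0.103 over all alternatives). The second was also lost under quantile normalization (adjusted p = 0.0833).

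Among the family genes that fell, 4 were listed at 0 in all brown libraries. They passed the filter through white husk alone, so they had to differ and their falls are a description. TRINITY_DN14998_c0_g9, 1011 bases long and in the cluster of TRINITY_DN14998_c0_g5, had 6.22, 10.8 and 6.87 TPM in white libraries and came next below TRINITY_DN12717_c1_g3 by level. TRINITY_DN13761_c1_g2, in the cluster of TRINITY_DN13761_c1_g1, had 5.53, 3.16 and 3.52 TPM. TRINITY_DN14061_c0_g2, matched to At3g02645 like TRINITY_DN12717_c1_g2, had 3.01, 2.89 and 3.42 TPM, and its call was lost without brown replicate 3 or white replicate 3. The fourth was TRINITY_DN12717_c1_g6, described above. With the 2 rising genes of DN4066_c0 these made 6 of the 45 other genes at 0 in one variety, or 13.3%, beside 1.29% of all listed genes.

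Among genes at 1 TPM or more in every library of both varieties, TRINITY_DN12394_c0_g2 fell, with 3.30, 4.43 and 3.6 TPM in brown and 25.2, 26.6 and 28.5 TPM in white libraries. Its log2 fold change was -2.54 ± 0.18 (SE, limma adjusted p = 0.000691), and it kept its call whichever library was left out. Its neighbour in the cluster, TRINITY_DN12394_c0_g1, fell as well, with 13.2, 19.1 and 14.0 TPM in brown and 39.0, 31.8 and 34.9 TPM in white libraries (limma adjusted p = 0.0140, lost without brown replicate 3 or white replicate 3). Further falls were of genes under 1 TPM in every brown library, which also had to differ, so these falls are a description. TRINITY_DN14061_c0_g7 had 0.03 TPM in brown replicate 2 and 0 in the other brown libraries, against 5.58, 3.57 and 5.11 TPM in white libraries. TRINITY_DN14061_c0_g6, with 0.42 to 0.52 TPM in brown and 2.53 to 4.14 TPM in white libraries, did not pass when any library was left out, with 0.1 TPM added (adjusted p = 0.0529) or with the replicate number as a block (adjusted p = 0.0852, with a range of 0.0134 to 0.135 over all alternatives).

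The most abundant genes of the family were present in both varieties. TRINITY_DN15017_c1_g1, of 1694 bases and 10 isoforms, had 379, 226 and 270 TPM in brown and 238, 74.1 and 171 TPM in white libraries, ranges that overlapped (limma adjusted p = 0.234). TRINITY_DN15102_c0_g1 fell, with 81.0, 119 and 83.3 TPM in brown and 168, 176 and 162 TPM in white libraries (log2 fold change -0.85 ± 0.18, SE, limma adjusted p = 0.0350). Of the 6 fits without a library that call held only in the one without brown replicate 2, and it was lost without the mean-variance trend (adjusted p = 0.0931) and with the replicate number as a block (adjusted p = 0.0506, with a range of 0.0292 to 0.143 over all alternatives). TRINITY_DN15774_c0_g2 had 90.9 ± 12.6 TPM in brown and 52.7 ± 11.9 TPM in white husk (SD, n = 3 each, limma adjusted p = 0.0597). TRINITY_DN15563_c0_g1, with 99.2 ± 23.2 and 33.5 ± 17.4 TPM in brown and white husk, missed the threshold (limma adjusted p = 0.0611). It passed under quantile normalization (adjusted p = 0.0394) and with the replicate number as a block (adjusted p = 0.0385). It also passed without white replicate 1 (adjusted p = 0.0446) or white replicate 2 (adjusted p = 0.0402), but not without any of the other libraries. The range over all alternatives was 0.0385 to 0.165.

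The 45 other genes together summed to 1217, 1058 and 1019 TPM in brown and 940, 671 and 837 TPM in white libraries, so every brown sum was above every white sum. Without TRINITY_DN15017_c1_g1 the sums were 838, 832 and 749 TPM in brown and 702, 596 and 666 TPM in white libraries, again without overlap. For all 45 genes the difference of the means was 282 TPM, or 210 TPM without white replicate 2 and 249 TPM under quantile normalization. Without TRINITY_DN15017_c1_g1 it was 152 TPM. TRINITY_DN12717_c1_g2 and TRINITY_DN12406_c0_g5 together made up 7.49%, 8.46% and 7.30% of the TPM of the whole family in brown replicates 1, 2 and 3. TRINITY_DN12717_c1_g3 made up 2.20%, 1.70% and 2.50% in white replicates 1, 2 and 3.

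Of 15 clusters with 2 or more UPF0481 genes, 4 held a gene with every brown library above every white one and a gene with the reverse. These non-overlapping orders were met by 18 and 12 of the 45 other genes, beside 20.2% and 8.74% of all listed genes. The 18 include the 6 genes under 1 TPM in every white library, and the 12 include the 6 under 1 TPM in every brown library. These passed the filter through the other variety alone, so their ranges could not overlap and the counts are a description. The percentages are shares of genes. The share of all clusters that held both orders is not given here, so the 4 are a description. The 4 include DN12717_c1, from which 2 genes had been chosen. Opposite calls within a cluster occurred in DN13761_c1 and in DN14998_c0. In DN12717_c1 the opposite patterns were those of the 2 chosen genes, which are given without a test. In DN13761_c1 the larger gene by TPM rose and a gene at 0 in brown husk fell, and the same was true of DN14998_c0. Both of these falls were of genes that passed the filter through white husk alone. The remaining case, DN14517_c0, had no gene past the threshold.

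**Figure D4:**
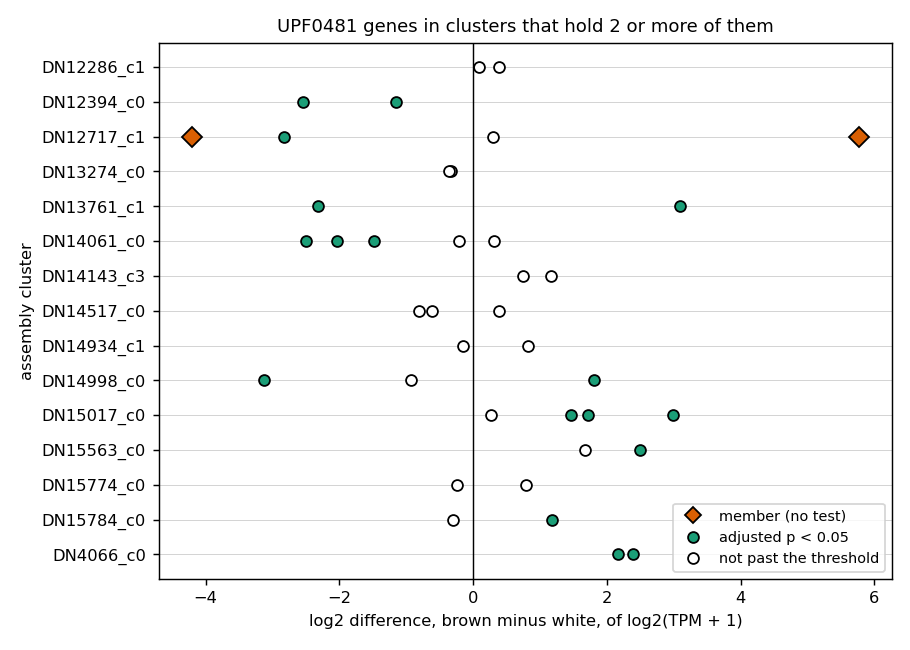
Brown minus white difference of mean log2(TPM + 1) (horizontal axis) for each UPF0481 gene in the 15 clusters (rows) that hold 2 or more. Diamonds are 2 of the 3 UPF0481 genes, shown without a test, and filled circles are genes with a limma adjusted p under 0.05. Filled symbols on both sides of 0 occur in DN12717_c1, DN13761_c1 and DN14998_c0.

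All 3 chosen genes were shorter than the median of the other family genes. Their lengths of 780, 496 and 234 bases compare with a median of 1487 bases and a range of 203 to 3120 bases in the 45 others, and 2 of the 48 family genes were shorter than TRINITY_DN12406_c0_g5. The other 6 family genes at 0 in one variety had a median of 514.5 bases (379 to 1011), and the remaining 39 family genes a median of 1535 bases. In the whole table the genes at 0 in one variety had a median length of 294 bases and all others 559 bases.

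**Figure D5:**
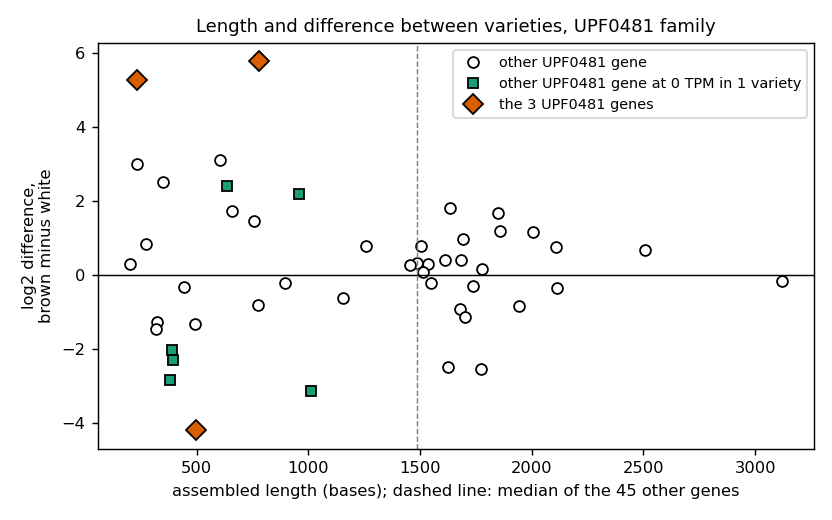
Brown minus white difference of mean log2(TPM + 1) (vertical axis) against assembled length in bases (horizontal axis) for the UPF0481 family. Diamonds are the 3 UPF0481 genes and squares the 6 other family genes at 0 TPM in one variety, all of 1011 bases or less and left of the dashed median of 1487 bases.

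Described genes outside the family were ranked by the root mean square difference of log2(TPM + 1) over the 6 libraries. Genes without a description were left out of this ranking, so they may lie nearer. For TRINITY_DN12717_c1_g2 the nearest were 2 genes matched to the receptor-like kinase At4g00960 (TRINITY_DN14518_c2_g2 at 0.14 and TRINITY_DN13615_c1_g1 at 0.39) and a kinase matched to At3g14840 (TRINITY_DN16062_c3_g3 at 0.46). TRINITY_DN14518_c2_g2 had 54.5, 42.7 and 46.8 TPM in brown libraries and at most 0.05 TPM in white ones. For TRINITY_DN12717_c1_g3 the nearest were another At3g14840-like kinase (TRINITY_DN13113_c0_g3 at 0.25), the metal transporter Nramp5-like (TRINITY_DN12620_c1_g10 at 0.33) and a putative disease resistance protein (TRINITY_DN13323_c0_g3 at 0.46). The kinase gene was listed at 0 in brown husk and at 32.1, 13.1 and 23.8 TPM in white replicates 1, 2 and 3, with white replicate 2 lowest, as in TRINITY_DN12717_c1_g3. The Nramp5-like and disease resistance genes were lowest there too. Over all listed genes that library also had the lowest median, 2.53 TPM, beside 4.03 and 3.55 TPM in white replicates 1 and 3. For TRINITY_DN12406_c0_g5 the nearest were a neomenthol dehydrogenase-like gene (TRINITY_DN14724_c0_g3 at 0.28), TRINITY_DN14518_c2_g2 at 0.36 and a gene matched to the Copia retrotransposon protein (TRINITY_DN13235_c0_g5 at 0.37). In all, 7, 13 and 9 genes, described or not, lay within 0.5 of TRINITY_DN12717_c1_g2, TRINITY_DN12717_c1_g3 and TRINITY_DN12406_c0_g5. The sole family genes among them were TRINITY_DN12717_c1_g2 and TRINITY_DN12406_c0_g5 themselves, at 0.44 from each other.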

How the data were processed

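RNA from husk was sequenced in 6 libraries, 3 per variety. The deposited table gives TPM (with 2 decimals) and length per assembled gene, per the file headers. Read handling involved FastQC and cutadapt, per the submitters' processing notes. The gene identifiers deposited by the authors name Trinity; the quantifier is not given in the sources used here. Every listed gene reaches at least 2.01 TPM in 1 library, so low genes are missing from the table.

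Samples were grouped by the labelled colour. Genes reaching 1 TPM in 3 or more libraries were tested, and their log2(TPM + 1) values were compared by limma 3.58.1 (R 4.3.3) with a mean-variance trend and Benjamini-Hochberg adjustment, checked on simulated data. Log2 fold changes are brown minus white, and rose or fell means an adjusted p under 0.05. No label says that libraries came from separate trees, so p-values may reflect technical spread alone. The family is every gene with UPF0481 or DUF247 in its main or Swiss-Prot description. Named genes were the 3 chosen genes, all genes of their clusters (same DN and c number), family genes past the threshold (up to 10 per direction), the 5 most abundant other family genes, and the 3 nearest described genes outside the family for each chosen gene. The members and lists were chosen with earlier results of these data known. Alternatives were a pseudocount of 0.1 TPM, no filter, a filter of 5 TPM, quantile normalization, no trend, the replicate number as a block, other family definitions and leaving out each library.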

Additional observations from a re-analysis of the deposited data

How the results depend on the processing

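The log2 differences of TRINITY_DN12717_c1_g2, TRINITY_DN12717_c1_g3 and TRINITY_DN12406_c0_g5 kept their sign in every alternative. The genes were chosen for differing and one variety is at 0, so no pseudocount or left-out library could change that sign. With a pseudocount of 0.1 TPM the differences went to 9.07, -7.45 and 8.55, since one variety is at 0. For TRINITY_DN12717_c1_g2 quantile normalization gave 5.70. With 1 library left out the ranges were 5.74 to 5.81, -4.48 to -4.06 and 5.11 to 5.50. All 18 calls in the rest of the family, 11 of them on genes under 1 TPM in every library of one variety, had the same sign wherever they were tested, and 10 passed whichever of the 6 libraries was left out. Of those 10, only TRINITY_DN13761_c1_g1, TRINITY_DN14998_c0_g5, TRINITY_DN12394_c0_g2 and TRINITY_DN15017_c0_g1 were outside that condition, the last by its 1.04 TPM in white replicate 1. The rest had to differ, so their calls are a description. The family counts were 4 higher and 4 lower with a filter of 5 TPM, and between 5 and 9 higher and between 5 and 8 lower with 1 library left out. Defining the family by the main annotation column gave 8 and 6, and adding genes with the Pfam domain alone, a choice made after seeing the data, gave 9 and 9. The summed difference of the family ranged from 210 to 344 TPM with 1 library left out. Over all genes, 1450 higher and 819 lower became 1270 lower under quantile normalization, where 1259 were higher, and 410 to 1255 higher and 259 to 1013 lower with 1 library left out. Genes at 0 in one variety numbered 15 and 12 at 10 TPM or more, and 332 to 557 and 197 to 274 with 1 library left out, and clusters with both kinds 1 at 10 TPM or more and 11 to 15. Leaving out a library can only keep or raise the counts of such genes and clusters. TIM10 (TRINITY_DN12717_c1_g8), not past the threshold in any fit, ranged from -0.21 to 0.023 with 1 library left out and changed sign without brown replicate 3. The causes were not tested. Deviations of same-numbered libraries correlated at 0.06, 0.06 and 0.01, under 0.1, so the numbers are not taken to pair the libraries, although each library correlated best with its own number. With the replicate block 735 genes were higher and 490 lower, and 8 and 7 in the family.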
